A study of Mus musculus with 23 samples.

Results

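Genes whose promoter held more than 1 region of open chromatin were examined in 3T3-L1 cells, an established mouse preadipocyte line that differentiates into fat cells. The authors gave a gene name to 12268 of the 84019 peaks of day -2, and such named peaks are called promoter-class peaks here. A gene was a member when it occurred in 2 or more rows of that day's named table on the same chromosome, with mitochondrial rows left out. This held for 1145 of the 11024 genes with a nuclear promoter-class peak, which together had 2386 of the 12265 nuclear promoter-class peaks. There were 1057 genes with 2 peaks, 80 with 3 and 8 with 4. The remaining 9879 genes had 1. For each member, the stronger peak is the one with the highest mean normalised count over the 8 libraries of day -2, and the weaker peak is the one with the second highest. For results within day -1 or day 0, both were chosen anew in this way from the libraries of that day. They can thus be other peaks than on day -2. The contrast of day 0 with day -2 kept the choice of day -2. Levels therefore chose which peak is called stronger, and their difference within a gene is a description.

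The assay was ATAC-seq, which reads open chromatin from where a transposase can cut and tag the DNA of isolated nuclei. Per the labels, sub-confluent cells were reverse-transfected on day -3 with 50 nM siRNA against Kdm5c or with a non-targeting control (scramble below) at the same dose, both with Lipofectamine RNAiMAX. Nuclei were taken 24, 48 and 72 hours later, on days -2, -1 and 0. All groups share the cell line, the growth medium and the transfection reagent. There were 23 libraries, 4 in each group apart from the Kdm5c siRNA group of day 0, which had replicates 1, 2 and 4. No label tells if replicates are separate cultures, so every p-value covers only spread among these libraries, which may be technical.

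Kdm5c is an X-linked demethylase that removes methyl groups from lysine 4 of histone H3, a mark of promoters and enhancers. At an active promoter, a stretch upstream of the transcription start is kept free of nucleosomes, and the first positioned nucleosome lies just downstream of the start. Many mammalian promoters are rich in CpG and start transcription over a broad stretch, and some genes use alternative promoters that begin different first exons. A peak caller reports an interval of raised read density, so several peaks at one gene can be separate promoters or parts of one open region.

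Each library had 4474964 to 14913397 counts in peaks, of which mitochondrial peaks held 56.4% to 93.2%. This left 781309 to 3345583 nuclear counts. On day -2 the mitochondrial share was 56.4% to 70.0% with Kdm5c siRNA and 70.4% to 76.3% with scramble, and on day 0 it was 78.8% to 86.8% with Kdm5c siRNA and 87.5% to 91.4% with scramble, so the arms did not overlap on those days. On day -1 they did, at 87.6% to 92.6% with Kdm5c siRNA and 90.9% to 93.2% with scramble. Removing mitochondrial peaks before scaling left the count of called member peaks at 0 on every day. The promoter-class peak of Kdm5c itself, which does not measure its transcript, had 49.3 ± 16.95 normalised counts with Kdm5c siRNA and 60.8 ± 16.6 with scramble on day -2 (SD, n = 4 each). The log2 fold change there, -0.28 (SE 0.21), had an adjusted p of 0.98, so these data hold no check of the knockdown. Of 12 preadipocyte and fibroblast markers, 10, 8 and 8 had a promoter-class peak on days -2, -1 and 0. On day -2 their summed normalised counts were 597 to 661 with Kdm5c siRNA and 601 to 648 with scramble. None of 4 immune markers had one on any day, and of 6 mature adipocyte markers Lep alone had one, on days -2 and 0. The muscle markers Des, Myod1 and Myog had a peak on day -2 only, with 27.0 to 63.4 summed counts with Kdm5c siRNA and 21.7 to 86.0 with scramble. Of 3 endothelial markers Cdh5 had a peak on day -2 and Kdr on every day. On day -1 the peak of Kdr had 1.01 to 9.41 normalised counts with Kdm5c siRNA and 9.62 to 13.0 with scramble, without overlap, and on day 0 it had 12.1 to 15.4 with Kdm5c siRNA and 6.74 to 20.9 with scramble. Of 4 epithelial markers Krt8 had a peak, on day -2 only, with 3.59 to 17.3 normalised counts with Kdm5c siRNA and 15.7 to 20.1 with scramble. What part such peaks have in the results was not tested.

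The peaks of a gene lay close together. The rule by which the authors gave a peak its gene is not known and may itself limit this distance, so the values below do not show how many genes have distant starts. The gap between the stronger and the weaker peak was 181 bases in the median, with quartiles of 93 and 372 bases and a range of 11 to 1413 bases. Only 12 of 1145 genes had a gap of 1 kb or more, and 617 had a gap under 200 bases. All peaks of a gene together spanned 1034 bases in the median, against a median width of 721 bases for the single peak of the other 9879 genes. If the peaks of a gene less than 1 kb apart are joined, 10 genes keep 2 peaks.

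A transcription start in RefSeq, taken from a table of promoter sequences on GRCm38.p6, was at hand for 845 members. The gene's own start lay in the stronger peak alone for 544 of them, in the weaker peak alone for 83, in both for 10 and in neither for 208. The weaker peak held a start of another gene in 33. Members and genes with 1 peak had a like share with 2 or more RefSeq starts, 20% of 845 and 18% of 7599.

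Sequences of the annotated starts are shown for 4 of the 10 genes with an own start in each peak, because these are members whose peaks can be tied to separate starts. Each run is the 300 bases from 250 before to 50 after a start in RefSeq, 5′ to 3′ on the gene's strand. Capitals mark every match to 6 motifs, searched on both strands. For the GC box the letters were GGGCGG. The CCAAT box was searched by its name's letters. For the TATA box they were TATAAA. The cAMP response element was TGACGTCA, which is the same on both strands. The ETS motif was CCGGAAG. The E2F motif was TTTCCCGC. None of the 6 contains another. The 4 genes were picked after their values were seen, and no test rests on them.
Pias3 start in the stronger peak, chr3:96696826-96697125, plus strand: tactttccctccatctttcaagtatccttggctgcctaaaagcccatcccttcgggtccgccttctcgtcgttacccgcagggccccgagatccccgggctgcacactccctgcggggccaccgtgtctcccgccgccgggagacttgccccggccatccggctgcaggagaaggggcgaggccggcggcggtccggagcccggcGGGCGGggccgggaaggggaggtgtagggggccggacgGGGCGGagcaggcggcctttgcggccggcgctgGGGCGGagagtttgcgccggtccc
Pias3 start in the weaker peak, chr3:96696125-96696424, plus strand: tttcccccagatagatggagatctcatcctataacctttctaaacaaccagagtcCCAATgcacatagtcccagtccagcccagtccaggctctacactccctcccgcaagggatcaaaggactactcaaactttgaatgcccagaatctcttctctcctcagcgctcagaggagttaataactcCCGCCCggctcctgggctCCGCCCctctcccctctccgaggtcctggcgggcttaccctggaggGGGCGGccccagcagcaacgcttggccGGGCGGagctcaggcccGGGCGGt
Tifa start in the stronger peak, chr3:127790407-127790706, plus strand: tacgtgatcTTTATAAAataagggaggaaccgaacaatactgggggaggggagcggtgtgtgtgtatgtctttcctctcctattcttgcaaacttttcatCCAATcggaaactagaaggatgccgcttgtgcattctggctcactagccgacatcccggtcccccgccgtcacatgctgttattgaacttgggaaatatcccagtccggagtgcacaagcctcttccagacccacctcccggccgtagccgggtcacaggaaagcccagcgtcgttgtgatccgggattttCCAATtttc
Tifa start in the weaker peak, chr3:127789622-127789921, plus strand: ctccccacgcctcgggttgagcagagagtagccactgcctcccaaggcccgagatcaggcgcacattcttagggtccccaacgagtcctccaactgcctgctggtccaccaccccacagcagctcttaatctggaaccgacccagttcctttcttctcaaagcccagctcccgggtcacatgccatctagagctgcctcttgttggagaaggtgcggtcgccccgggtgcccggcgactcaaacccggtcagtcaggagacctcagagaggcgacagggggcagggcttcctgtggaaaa
Mpped2 start in the stronger peak, chr2:106693299-106693598, plus strand: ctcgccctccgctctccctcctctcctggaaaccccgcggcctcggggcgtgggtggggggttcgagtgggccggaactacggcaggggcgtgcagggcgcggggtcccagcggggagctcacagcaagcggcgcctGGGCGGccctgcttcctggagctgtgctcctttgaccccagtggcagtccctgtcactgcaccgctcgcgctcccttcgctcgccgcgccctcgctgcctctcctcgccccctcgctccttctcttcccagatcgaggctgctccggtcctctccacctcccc
Mpped2 start in the weaker peak, chr2:106692931-106693230, plus strand: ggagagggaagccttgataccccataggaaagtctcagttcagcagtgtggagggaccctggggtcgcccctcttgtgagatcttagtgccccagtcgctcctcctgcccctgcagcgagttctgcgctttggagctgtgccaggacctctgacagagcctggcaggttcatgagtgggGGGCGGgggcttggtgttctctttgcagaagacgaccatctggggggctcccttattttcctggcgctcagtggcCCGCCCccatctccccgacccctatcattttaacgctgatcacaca
Maz start in the stronger peak, chr7:127026956-127027255, minus strand: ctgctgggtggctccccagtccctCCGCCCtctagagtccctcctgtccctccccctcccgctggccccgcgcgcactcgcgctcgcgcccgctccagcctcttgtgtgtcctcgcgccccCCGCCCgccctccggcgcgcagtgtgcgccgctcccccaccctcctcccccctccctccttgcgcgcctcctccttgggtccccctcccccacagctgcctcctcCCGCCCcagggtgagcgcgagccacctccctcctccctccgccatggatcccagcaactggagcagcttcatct
Maz start in the weaker peak, chr7:127026430-127026729, minus strand: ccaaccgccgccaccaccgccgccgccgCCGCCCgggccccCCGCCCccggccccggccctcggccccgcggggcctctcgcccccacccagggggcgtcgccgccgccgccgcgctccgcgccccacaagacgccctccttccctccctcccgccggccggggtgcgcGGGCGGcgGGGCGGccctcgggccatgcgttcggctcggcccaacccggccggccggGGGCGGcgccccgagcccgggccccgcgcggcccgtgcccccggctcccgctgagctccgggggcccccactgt

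The start in the stronger peak of Pias3, which encodes an inhibitor of STAT signalling and SUMO ligase, lay 701 bases from the start in its weaker peak. The stronger peak had 80.6, 99.6, 65.4 and 88.6 normalised counts with Kdm5c siRNA, against 54.4, 89.2, 70.0 and 79.6 with scramble. Its weaker peak had 32.2, 36.2, 27.0 and 40.7 normalised counts with Kdm5c siRNA, against 19.0, 70.8, 37.5 and 43.4 with scramble. The arms overlapped at both peaks of Pias3.

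At Tifa, an adaptor of TRAF signalling, the starts lay 785 bases apart. The stronger peak there had 45.9, 24.1, 39.3 and 31.1 normalised counts with Kdm5c siRNA, against 36.7, 52.5, 23.7 and 24.1 with scramble. The weaker one had 28.5, 30.9, 28.6 and 10.8 normalised counts with Kdm5c siRNA, against 25.3, 26.2, 20.7 and 32.2 with scramble. Its stronger-peak start is the only run of the 8 with a TATA box match.

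Maz, a GC-binding zinc finger protein, had 80.6, 103, 96.5 and 97.0 normalised counts with Kdm5c siRNA, against 109, 87.9, 102 and 113 with scramble at the stronger peak. At the weaker peak it had 80.6, 84.5, 55.6 and 67.0 normalised counts with Kdm5c siRNA, against 46.8, 56.4, 52.3 and 66.8 with scramble. The window at the start in the weaker peak was 87.3% G or C, the highest of the 8. Mpped2, a metallophosphoesterase gene, had far fewer counts, with 7.44, 16.6, 21.3 and 5.99 normalised counts with Kdm5c siRNA, against 6.33, 14.4, 15.8 and 20.1 with scramble at the stronger peak. Over all 10 such genes the log2 ratio of stronger to weaker was 0.32 to 2.75, and 17 of their 20 peaks passed the filter on low counts. Their log2 fold changes between arms were -0.33 to 0.64, with no adjusted p under 0.98 in edgeR.

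For the 807 members that could be placed within 2000 bases of a RefSeq start, the start nearest the centre of the stronger peak was used. The weaker peak was measured from that same start. Where a gene has several starts, this choice favours the stronger peak, so part of the contrast below is built in. How large that part is was not tested. The centre of the stronger peak had a median of -8.5 bases from the start and quartiles of -162 and 126 bases. It was within 250 bases of the start in 557 genes (69.0%). The centre of the weaker peak was within 250 bases in 180 genes (22.3%), and its median was -124.5 bases. The weaker peak was upstream of the stronger one in 439 genes and downstream in 368. Upstream weaker peaks were centred at a median of -635.5 bases and downstream ones at 398 bases.

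**Figure D1:**
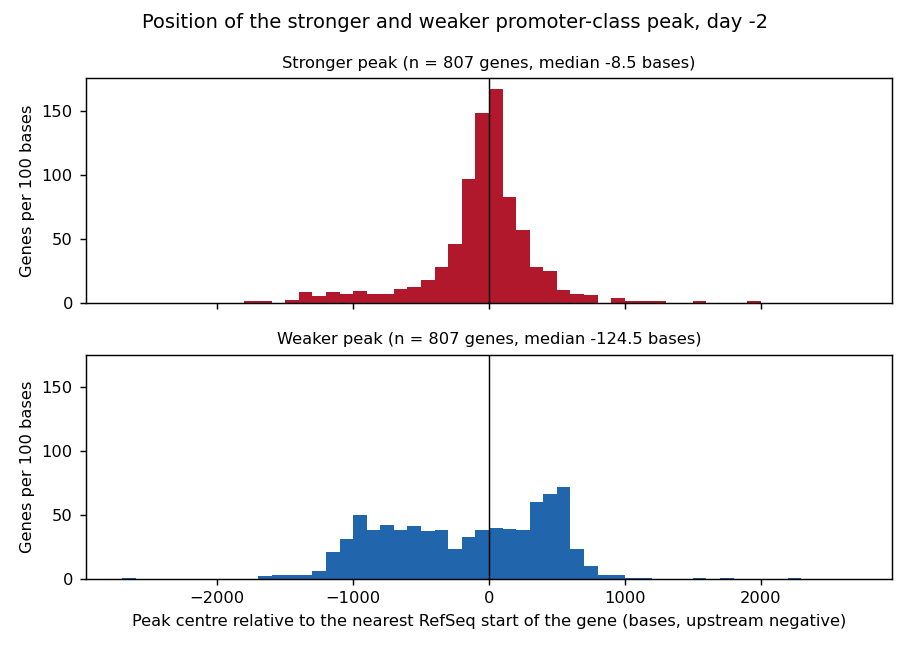
Histograms of the peak centre relative to a RefSeq start of the gene, in bases with upstream negative and bins of 100 bases. They show the stronger peak (top) and weaker peak (bottom) of 807 genes on day -2. Both panels use the same start, the gene's own one nearest the centre of the stronger peak. This choice favours the stronger peak where a gene has several starts. Stronger peaks pile up at the start, and weaker peaks form shoulders on both sides, 439 upstream and 368 downstream of the stronger peak.

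By letters, the promoters of members were like those of genes with 1 peak. The median share of G or C in the 300 bases around the start was 63.7% in 807 members, 62% in 7306 genes with 1 peak and 52.7% in all 32851 RefSeq promoters of the table. A GC box, in the letters given above, was found in 72.1% of members, 68.8% of genes with 1 peak and 35.7% of all promoters. For the CCAAT box these shares were 35.1%, 39.1% and 37.4%, and for the TATA box they were 6.69%, 6.49% and 13.6%. The ETS motif was found in 13.1%, 18.7% and 8.86%, which was the motif with the largest gap between members and genes with 1 peak among the 6 searched. The cAMP response element was found in 3.84%, 3.52% and 1.79%, and the E2F motif in 2.2%, 2.2% and 1.07%. These matches are a description of letters and no test was made.

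In the same table of genes, 94.2% of matched members and 95.5% of matched genes with 1 peak were protein-coding. The gene body spanned 21.9 kb in the median for members and 23.3 kb for genes with 1 peak. The symbols of 19 members are microRNA genes, and 3 symbols look like dates, as spreadsheet software makes of some gene names, and were left as deposited.

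The stronger peak had a median of 38.2 normalised counts and the weaker peak 10.7, as means over the 8 libraries of day -2. The log2 ratio of stronger to weaker was 1.43 in the median, with quartiles of 0.60 and 2.50 and a maximum of 5.01. The ratio was 2 or more in 708 genes, 4 or more in 401 and 8 or more in 176. Width went with it. The stronger peak was 539 bases wide in the median and the weaker 182, and the stronger was the wider one in 90.1% of genes. Counts per base differed less, with a median log2 ratio of 0.32, and in 69.7% of genes the stronger peak was also the higher one per base. Summed over its peaks, a member had 53.8 normalised counts in the median, against 63.5 for a gene with 1 peak.

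**Figure D2:**
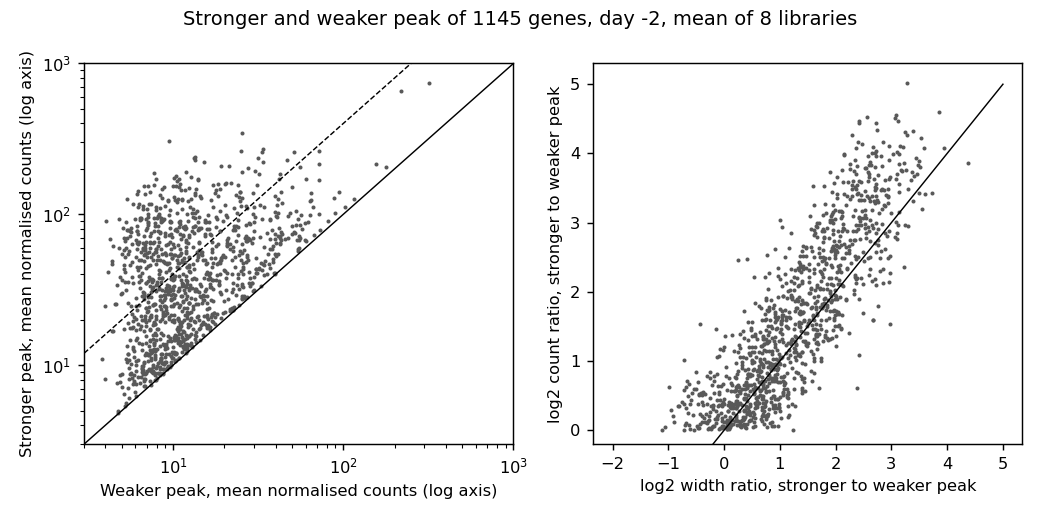
Left, mean normalised counts of the stronger peak against the weaker peak for 1145 genes on day -2, both on log axes, with a solid line at equal counts and a dashed line at a ratio of 4. Right, log2 ratio of counts against log2 ratio of peak widths for the same genes, with a line where both are equal. The count ratio grows with the width ratio, and 401 genes lie on or above the dashed line.

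Among genes with both peaks past the filter on low counts, clone and model names aside, the most unequal pairs were a broad peak at the start and a narrow satellite. Dmrt1i had the largest ratio, with a log2 value of 4.16, and its peaks held 192 to 295 and 6.54 to 25.6 normalised counts across the 8 libraries. Stip1, a co-chaperone that links Hsp70 and Hsp90, followed at 4.14, with 186 to 259.8 counts in a peak of 1209 bases and 5.06 to 33.5 in one of 218 bases. Zbtb18, a transcriptional repressor, Nfatc3, a calcium-responsive transcription factor, and Setd2, which methylates lysine 36 of histone H3, had log2 ratios of 4.10, 4.10 and 4.00. All 5 had their own RefSeq start in the stronger peak alone.

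Among those same genes, the most equal pairs were Larp1, Hoxa2, Vps53, B3gnt3 and Eif4a2, with log2 ratios of 0.02 to 0.03. Larp1 binds messenger RNAs of the translation machinery. Its upstream peak, which held the start, had 27.5 to 56.6 normalised counts across libraries, and its downstream peak had 26.2 to 51.3. Eif4a2, a helicase of translation initiation, had 27.3 to 63.5 and 27.8 to 57.1 in peaks only 27 bases apart. In such genes the 8 libraries overlap between peaks, and which of them is called stronger is set by small differences.

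Of the 8 genes with 4 peaks, the 5 with the highest summed counts are described, which leaves out Gadd45g, Mrpl14 and Nrg1. At Junos, the antisense neighbour of Jun, 1 broad peak of 189.8 to 259 normalised counts stood beside 3 narrow ones, the strongest of which had 8.88 to 22.7. ATAC-seq reads carry no strand for transcription, so a peak between such neighbours cannot be assigned to either gene. Kdm2a, a demethylase of lysine 36 of histone H3, had the same form, with 118 to 183 in its broad peak and 3.94 to 31.7 in the next. Foxp1, a forkhead transcription factor with known alternative promoters, had 4 peaks of like strength, the first 2 with 22.7 to 37.2 and 15.7 to 44.5. Its stronger and weaker peaks lay 1094 bases apart. Dusp7, a phosphatase of ERK kinases, and Tmem178b fell between these forms, with log2 ratios of 0.44 and 0.89.

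Genes of 3 lists were looked up among the members. Of 43 genes known for alternative promoters, 22 had a promoter-class peak on day -2 and 5 were members, namely Cdkn2a, Foxp1, Nr3c1, Nfatc1 and Nrg1. That is 22.7% of the 22, against 10.4% of all 11024 genes with such a peak. Of 23 adipogenic factors, 19 had a peak and 4 were members (21.1% of the 19), namely Klf6, Klf15, Zfp423 and Nr3c1. Of 21 regulators of lysine 4 methylation, 17 had a peak and 2 were members (11.8% of the 17), Kdm2a and Setd1a. These shares rest on few genes and were not tested. Kdm2a is listed among demethylases and acts mainly on lysine 36.

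These list members differed in the gap between their peaks, with 87 bases at Nr3c1 and 1094 bases at Foxp1. At Cdkn2a, the stronger peak held 99.7 to 132 normalised counts over the 8 libraries and the weaker 1.64 to 12.1, with a gap of 135 bases. At Nr3c1, the glucocorticoid receptor that dexamethasone acts on in standard adipogenic cocktails, the peaks held 35.4 to 55.8 and 7.59 to 18.6. At Zfp423, a factor of preadipocyte commitment, they held 88.6 to 122 and 13.1 to 26.6 and lay 1056 bases apart. Setd1a, a methyltransferase of lysine 4, had 59.0 to 97.3 and 6.03 to 13.8. Klf6 had 45.4 to 76.9 and 1.64 to 19.2, and Klf15 had 8.18 to 24.9 and 2.62 to 25.7. No member peak of these lists was called between arms on any day.

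On the later days, few members were split in the same way. Of 1145 genes, 192 (16.8%) again had 2 or more promoter-class peaks on day -1 and 229 (20%) on day 0, and 102 did so on all 3 days. Peaks were called per day, with 84019, 31970 and 37054 peaks in all, so a missing peak means that none was called there. Depth also differed by day. Every library of day -2 held at least 1816082 nuclear counts, while the deepest library of day -1 held 1446979. For day 0, the shallowest library held 1088968 and the deepest 2525925. What part depth has in the missing peaks was not tested. No such share is given here for genes with 1 peak. By overlap of at least 1 base with any peak of day -1, both peaks were found separately in 156 genes and joined in a single peak in 142. The stronger peak alone was found in 503 genes (43.9%), the weaker alone in 24 and neither in 320. On day 0 these counts were 188, 214, 437 (38.2%), 34 and 272.

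Genes that kept only the stronger peak on day 0 had a median log2 ratio of 2.36 on day -2, against 1.18 for genes that kept both and 0.59 for genes that kept neither. Genes whose peaks were joined on day 0 had a median gap of 92 bases on day -2, against 295 bases for those still separate. The order of the peaks was mostly kept. Where overlap paired both peaks with both peaks of the later day, the stronger peak stayed the stronger in 122 of 131 genes on day -1 and in 138 of 156 on day 0. The 9 genes with the other order on day -1 had log2 ratios of at most 0.57 on day -2. Among the 18 on day 0 were Hoxa5, a homeobox gene, Nrp1, a co-receptor for semaphorins and VEGF, and Larp1. The median log2 ratio over genes split again was 1.20 on each later day.

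The first question of the design is whether siRNA against Kdm5c altered accessibility at these peaks. Of the stronger peaks, 1071, 188 and 229 passed the filter on low counts on days -2, -1 and 0, and of the weaker peaks 662, 131 and 193. Counting further peaks of the same genes, 1769, 323 and 433 member peaks were tested. None was called on any day at an adjusted p under 0.05 in edgeR, nor by DESeq2. Over all peaks tested on each day, edgeR called 0.00404%, 0% and 0.00352%. At an unadjusted p under 0.05, edgeR gave 90 member peaks on day -2 (5.09%, against 4.63% of all peaks), 15 on day -1 (4.64%, against 5.38%) and 19 on day 0 (4.39%, against 5.99%). DESeq2 gave 50 (2.83%, against 3.25% of all peaks), 12 (3.72%, against 4.80%) and 18 (4.16%, against 5.29%). Scaling by total counts alone, in which mitochondrial reads dominate, moved the median of all peaks by 0.44, 0.38 and 0.56 on the log2 scale. On that scale 82 member peaks were called on day -2, 82 higher and 0 lower, along with 2.47% of all peaks, and none on the other days.

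Fold changes were close to 0 at both peaks. On day -2 the median log2 fold change was 0.08 over stronger and 0.10 over weaker peaks, against 0.03 over all nuclear promoter-class peaks and 0.00 over all peaks. On day -1 these medians were -0.01 and -0.02 for stronger and weaker peaks, and on day 0 they were -0.02 and -0.06. Of the 90 member peaks at an unadjusted p under 0.05 on day -2, 75 were higher and 15 lower with Kdm5c siRNA. For all promoter-class peaks that day the split was 324 and 144, and for all peaks 1148 and 1143. On day 0 the split over member peaks was 5 higher and 14 lower. All promoter-class peaks split into 185 and 274 on day 0, and all peaks into 758 and 943. For day -1 the split was 7 and 8 over member peaks, 233 and 237 over all promoter-class peaks and 595 and 658 over all peaks.

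**Figure D3:**
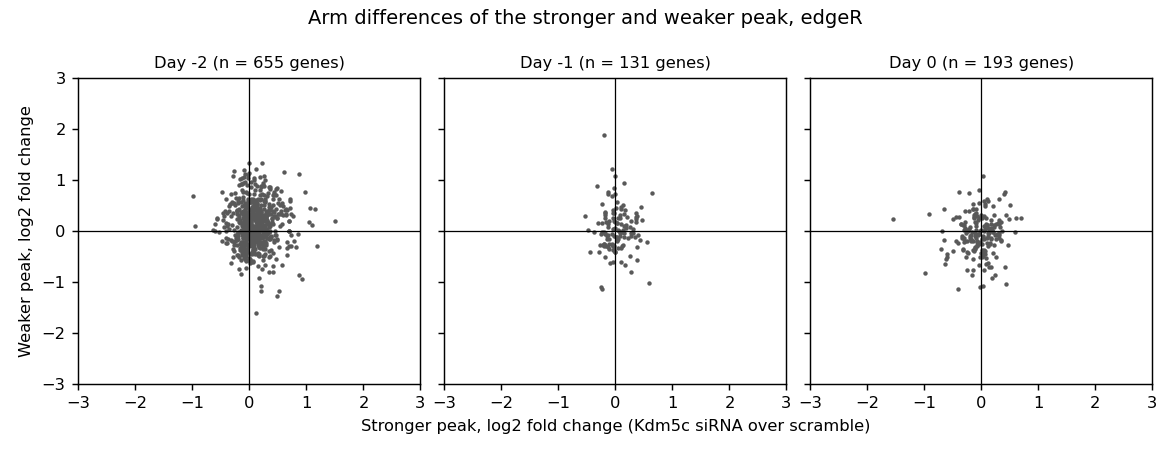
Log2 fold change between arms, Kdm5c siRNA over scramble, of the weaker peak against that of the stronger peak, 1 point per gene with both peaks tested, on days -2, -1 and 0 (655, 131 and 193 genes). The points cluster around 0 on both axes, spread more along the weaker peak's axis, and none passed an adjusted p under 0.05.

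Among the named transcription factors and chromatin proteins, the smallest adjusted p on day -2 was at the stronger peak of Foxn4, a forkhead factor of retinal and spinal progenitors, at chr5:114273748-114274061 of GRCm38. It had 31.0, 40.7, 27.8 and 27.5 normalised counts with Kdm5c siRNA, against 11.4, 15.7, 8.88 and 9.65 with scramble. All 4 Kdm5c siRNA libraries lay above all 4 scramble libraries, but the difference did not pass the correction (log2 fold change 1.50, SE 0.37, adjusted p = 0.73). The weaker peak of Foxn4 had 14.9, 33.9, 12.3 and 5.99 normalised counts with Kdm5c siRNA, against 13.9, 13.1, 9.87 and 22.5 with scramble, and there the arms overlapped. Eapp, which encodes an E2F-associated phosphoprotein, had 131, 89.8, 165 and 91.0 normalised counts with Kdm5c siRNA, against 179.6, 194, 144 and 119.8 with scramble at its stronger peak, with overlapping arms and a log2 fold change of -0.40 (SE 0.15), which turned positive under total-count scaling.

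Mynn, a zinc finger protein, stood out on day 0 at its weaker peak, with 18.8, 19.5 and 25.8 normalised counts with Kdm5c siRNA, against 10.1, 9.91, 12.3 and 8.05 with scramble. The arms did not overlap there (log2 fold change 1.09, SE 0.45, adjusted p = 0.76), while its stronger peak had 83.1, 111 and 101 normalised counts with Kdm5c siRNA, against 101, 91.4, 94.6 and 103 with scramble. For Id1, an inhibitor of basic helix-loop-helix factors, both peaks were above scramble on day 0 in every Kdm5c siRNA library. Its stronger peak had 46.9, 63.2 and 50.0 normalised counts with Kdm5c siRNA, against 43.8, 44.0, 45.5 and 25.5 with scramble and its weaker peak 25.5, 40.9 and 20.3 normalised counts with Kdm5c siRNA, against 11.2, 17.6, 18.4 and 20.1 with scramble. The log2 fold changes of Id1 were 0.42 (SE 0.24) and 0.77 (SE 0.36), with adjusted p of 0.861 and 0.816. The arms did not overlap in 22 of 433 member peaks that day, 5.08%, against 6.22% of all peaks. On day -2 this was 59 of 1769 member peaks (3.34%, against 2.87% of all peaks), and on day -1 it was 8 of 323 (2.48%, against 3.27%).

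Several named genes encode receptors and surface proteins. On day -1 the weaker peak of Igf1r, the receptor of insulin-like growth factor 1, had 12.0, 25.5, 12.1 and 12.3 normalised counts with Kdm5c siRNA, against 2.88, 0.93, 5.60 and 7.48 with scramble. All Kdm5c siRNA libraries were above all scramble libraries, with the smallest adjusted p among member peaks of that day (log2 fold change 1.88, SE 0.55, adjusted p = 0.698). Over all peaks tested that day the smallest adjusted p in edgeR was 0.271. The stronger peak of Igf1r, 890 bases away, had 38.0, 51.0, 31.4 and 38.4 normalised counts with Kdm5c siRNA, against 47.9, 47.4, 44.8 and 40.6 with scramble, with overlap. The weaker peak of Nrp1 averaged 30.5 ± 7.73 with Kdm5c siRNA and 16.4 ± 3.36 with scramble (SD, n = 4 and 4), a log2 difference of 0.89 (SE 0.31) that did not pass the correction.

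On day 0 the stronger peak of Nrn1, a neuritin that promotes neurite growth, had 69.7, 93.9 and 62.6 normalised counts with Kdm5c siRNA, against 46.1, 36.3, 50.4 and 53.6 with scramble. These arms did not overlap (log2 fold change 0.69, SE 0.21, adjusted p = 0.661). Epha4, an ephrin receptor, averaged 39.9 ± 4.02 with Kdm5c siRNA and 26.4 ± 9.14 with scramble (SD, n = 3 and 4) at its stronger peak. On day -2 the weaker peak of Ncam1, a cell adhesion molecule, averaged 27.5 ± 8.53 with Kdm5c siRNA and 12.1 ± 7.72 with scramble (SD, n = 4 and 4), and that of Fzd8, a Wnt receptor, averaged 24.6 ± 4.45 with Kdm5c siRNA and 41.4 ± 10.3 with scramble (SD, n = 4 and 4). Their log2 fold changes were 1.09 (SE 0.39) and -0.74 (SE 0.28). The weaker peak of Elfn2, a leucine-rich repeat membrane protein, averaged 22.6 ± 3.71 with Kdm5c siRNA and 9.21 ± 4.47 with scramble (SD, n = 4 and 4).

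Of the named genes for enzymes and RNA-binding proteins, Cyp1b1, a cytochrome P450, had 9.38, 5.58 and 8.79 normalised counts with Kdm5c siRNA, against 21.4, 18.7, 30.7 and 22.8 with scramble at its stronger peak on day 0. Each Kdm5c siRNA library was below each scramble library (log2 fold change -1.55, SE 0.47, adjusted p = 0.661). At the weaker peak it had 6.70, 15.8 and 12.1 normalised counts with Kdm5c siRNA, against 8.99, 16.5, 8.60 and 5.36 with scramble, where the arms overlapped. Ssb, the La protein that binds ends of RNA polymerase III transcripts, had 6.20, 3.02, 12.3 and 3.59 normalised counts with Kdm5c siRNA, against 25.3, 18.4, 19.7 and 15.3 with scramble at its weaker peak on day -2. Those arms did not overlap either (log2 fold change -1.60, SE 0.53, adjusted p = 0.98), and the stronger peak of Ssb averaged 33.5 ± 9.81 with Kdm5c siRNA and 31.3 ± 5.81 with scramble (SD, n = 4 and 4).

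The weaker peak of Pak3, a p21-activated kinase on the X chromosome, had 7.44, 9.05, 7.36 and 9.58 normalised counts with Kdm5c siRNA, against 16.4, 21.0, 18.7 and 20.1 with scramble on day -2. Its libraries were separated by arm (log2 fold change -1.18, SE 0.49, adjusted p = 0.98). Mus81, a structure-specific endonuclease, averaged 90.0 ± 11.7 with Kdm5c siRNA and 56.4 ± 12.0 with scramble (SD, n = 4 and 4) at its stronger peak. Pik3c2a, a class II phosphoinositide 3-kinase, averaged 91.5 ± 8.07 with Kdm5c siRNA and 119 ± 13.2 with scramble (SD, n = 4 and 4) and Mpg, a DNA glycosylase, averaged 32.4 ± 10.2 with Kdm5c siRNA and 47.5 ± 9.74 with scramble (SD, n = 4 and 4) there. The log2 fold changes of these 3 were 0.69 (SE 0.19), -0.37 (SE 0.16) and -0.53 (SE 0.25), of which that of Pik3c2a turned positive under total-count scaling.

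**Figure D4:**
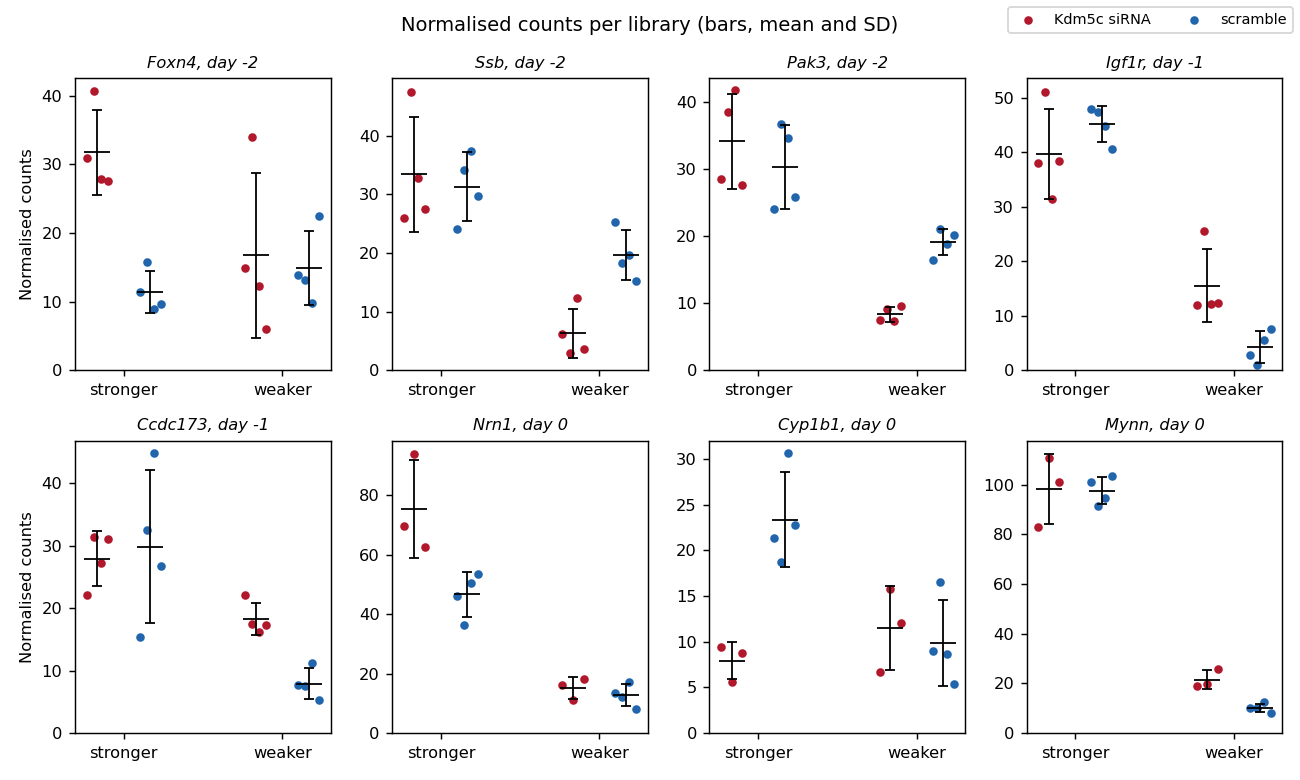
Normalised counts of each library at the stronger and weaker peak of 8 of the named genes whose arms do not overlap at one of their peaks, with Kdm5c siRNA in red left of scramble in blue, and bars for mean and SD. In Foxn4, Nrn1 and Cyp1b1 the stronger peak separates the arms, and in Ssb, Pak3, Igf1r, Ccdc173 and Mynn the weaker one does. Both arms together set which peak is called stronger. The mean log2 ratio of stronger to weaker was -0.34 with scramble at Foxn4 and -0.47 with Kdm5c siRNA at Cyp1b1. None passed the correction over all peaks.

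The other genes taken by the same rule had log2 fold changes of 0.58 (SE 0.17) at the stronger peak of Nckap5l, a centrosomal protein, and 1.04 (SE 0.33) at the weaker peak of Wdr26, a subunit of a ubiquitin ligase complex, on day -2. On day -1 the stronger peaks of Asap1, an Arf GTPase activator, Slc38a2, an amino acid transporter, and Ric8a, a chaperone of G protein subunits, had 0.37 (SE 0.17), 0.35 (SE 0.18) and 0.38 (SE 0.20). Those of Spag9, a JNK scaffold, Fam35a, and Tpgs1, a subunit of tubulin polyglutamylase, had -0.48 (SE 0.20), -0.26 (SE 0.15) and -0.54 (SE 0.34), of which that of Fam35a turned positive under total-count scaling. At weaker peaks of that day, Ccdc173 had 1.22 (SE 0.44), Tmem121 -1.13 (SE 0.43), Pim1, a serine/threonine kinase, -0.80 (SE 0.32) and Scaf1, a splicing-related protein, -0.48 (SE 0.21). No adjusted p among these was under 0.856.

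On day 0 the stronger peaks of Aldh9a1, an aldehyde dehydrogenase, Fau-ps2, a pseudogene of the ribosomal protein gene Fau, and Fam212a had log2 fold changes of 0.31 (SE 0.17), -0.34 (SE 0.13) and -0.66 (SE 0.25), and that of Fau-ps2 turned positive under total-count scaling. At weaker peaks, Actr1a, a dynactin subunit, had 0.48 (SE 0.17), the histone gene Hist1h2be -0.76 (SE 0.27), Inafm2 -0.91 (SE 0.38) and Fbxo11, a ubiquitin ligase subunit, -0.66 (SE 0.28). Adjusted p-values were 0.712 or more. Fau-ps2 and the histone genes have near-identical copies, so reads there may have been split or lost in the authors' counting.

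The second question is whether the arms differed more at one peak of a gene than at the other, that is, in the log2 ratio of stronger to weaker. Scaling of libraries cancels in this ratio. Over the 655 tested pairs of day -2, the median log2 ratio per library was 1.34 ± 0.11 with Kdm5c siRNA and 1.34 ± 0.05 with scramble (SD, n = 4 each). Over the 131 pairs of day -1 it was 0.99 ± 0.08 with Kdm5c siRNA and 0.98 ± 0.09 with scramble (SD, n = 4 each). Over the 193 pairs of day 0 it was 1.10 ± 0.12 with Kdm5c siRNA (SD, n = 3) and 1.20 ± 0.12 with scramble (SD, n = 4). The libraries of both arms overlapped on every day.

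No member pair differed between arms at an adjusted p under 0.05 in limma on any day. The same test called 0% of 44871, 18335 and 23392 pairs of neighbouring peaks on the 3 days. At an unadjusted p under 0.05 there were 37 member pairs on day -2 (5.65%, against 4.98% of all pairs), 9 on day -1 (6.87%, against 5.57%) and 9 on day 0 (4.66%, against 5.43%). The smallest adjusted p was 0.839, for Igf1r on day -1.

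Its log2 ratio was 1.39 ± 0.30 with Kdm5c siRNA and 3.54 ± 1.19 with scramble (SD, n = 4 and 4), a difference of -2.16 (SE 0.57). On day -2, the log2 ratio of Ssb was 2.48 ± 1.03 with Kdm5c siRNA and 0.66 ± 0.49 with scramble (SD, n = 4 and 4), a difference of 1.82 (SE 0.58). Alyref, an export adaptor of messenger RNA, had 3.10 ± 0.56 with Kdm5c siRNA and 1.32 ± 0.42 with scramble (SD, n = 4 and 4), and Plekho1 had 2.89 ± 1.16 with Kdm5c siRNA and 0.80 ± 0.65 with scramble (SD, n = 4 and 4). Nes, which encodes the filament protein nestin, had -0.39 ± 0.44 with Kdm5c siRNA and 1.05 ± 0.90 with scramble (SD, n = 4 and 4). Wdr26 had 0.85 ± 0.43 with Kdm5c siRNA and 2.00 ± 1.55 with scramble (SD, n = 4 and 4). These adjusted p-values were all 0.971.

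Scaf1 was named on both day -2 and day -1. Its log2 ratio on day -2 was 0.63 ± 0.28 with Kdm5c siRNA and 1.26 ± 0.65 with scramble (SD, n = 4 and 4), and on day -1 it was 1.20 ± 0.20 with Kdm5c siRNA and 0.47 ± 0.38 with scramble (SD, n = 4 and 4). Between arms it differed by -0.63 (SE 0.26) and by 0.73 (SE 0.26) on those days, with opposite signs, and neither passed the correction. Pim1 differed by 0.99 (SE 0.37) on day -1, the long non-coding RNA gene Dleu2 by 1.59 (SE 0.66), Nrp1 by -1.18 (SE 0.40) and Ccdc173 by -1.20 (SE 0.51). On day 0, Mynn differed by -1.05 (SE 0.43), Cyp1b1 by -1.76 (SE 0.76), Mrpl41, a mitochondrial ribosomal protein, by -0.82 (SE 0.37), Inafm2 by 1.10 (SE 0.45), Lmf2, a lipase maturation factor, by 0.89 (SE 0.38) and Hist1h2be by 0.78 (SE 0.34).

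The third question is whether the balance of the peaks shifted between day 0 and day -2. Both peaks had a partner on day 0, with at least 50% reciprocal overlap, in 104 member pairs, and the arms entered as a covariate. In limma, 16 of these (15.4%) were called, 6 with a higher and 10 with a lower log2 ratio on day 0. Over all 6670 such pairs of neighbouring peaks the test called 24%, with 10.9% higher and 13.1% lower. The share among members was below that of neighbouring peaks in general, and this gap was not tested. In all 16 the libraries of day 0 overlapped those of day -2, while they did not in 329 of all 1599 called pairs (20.6%).

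Each day has its own peak boundaries, and a ratio of counts contains the ratio of the called widths. The ratio of widths of stronger to weaker moved in the same direction as the ratio of counts in 16 of the 16 called genes, and in 1476 of all 1599 called pairs (92.3%). The same was true of 82 of the 104 member pairs and of 74.5% of all 6670 pairs. Per base of peak, 3 of the 104 member pairs were called, against 12.1% of all pairs, and none was among the 16. The sign of the difference turned per base in 5 of the 16. The 3 pairs called per base in limma were Id1, at 0.99 (SE 0.23, adjusted p = 0.00227), Sgsm2 at -0.89 (SE 0.28, adjusted p = 0.025) and Irx5 at -0.34 (SE 0.12, adjusted p = 0.0475).

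The largest called difference was at Chsy1, a chondroitin synthase. Its log2 ratio of counts was 3.18 ± 1.14 on day 0 and 1.52 ± 0.32 on day -2 (SD, n = 7 and 8), a difference of 1.70 (SE 0.40, adjusted p = 0.000813). The stronger and weaker peaks were 775 and 161 bases on day 0, and 724 and 279 bases on day -2. Per base the difference was 0.81, with an adjusted p of 0.182. The median over the libraries was 2.61 on day 0, with a range of 2.02 to 5.24, and 1.56 on day -2, with a range of 1.12 to 2.03.

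Dbp and Noct, both tied to the circadian clock, moved in opposite directions. Dbp, a clock-controlled transcription factor, had a log2 ratio of 1.20 ± 0.39 on day 0 and 2.16 ± 0.38 on day -2 (SD, n = 7 and 8), a difference of -0.95 (SE 0.27, adjusted p = 0.0069). Its peaks were 497 and 309 bases on day 0, and 815 and 216 bases on day -2, and per base the sign was reversed, at 0.28 (adjusted p = 0.565). Noct, or nocturnin, had 1.80 ± 0.51 on day 0 and 0.95 ± 0.41 on day -2 (SD, n = 7 and 8), a difference of 0.85 (SE 0.25, adjusted p = 0.00883). Its peaks were 739 and 340 bases on day 0, and 886 and 545 bases on day -2, and per base the difference was 0.43 (adjusted p = 0.279).

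Mynn had 2.77 ± 0.61 on day 0 and 1.77 ± 0.32 on day -2 (SD, n = 7 and 8), a difference of 0.97 (SE 0.26, adjusted p = 0.00364). The other called genes with a higher log2 ratio were Ado, a thiol dioxygenase, at 0.93, Mpg at 0.89 and Pik3c2a at 0.67, the last with -0.19 per base. Those with a lower one were Trim8, a ubiquitin ligase, at -0.83, Hist1h4a, a histone H4 gene, at -0.83, Eapp at -0.66, Tob1, an antiproliferative protein, at -0.62 and Negr1, a cell adhesion protein, at -0.59. Hivep2, Larp1, Ric8a and Fau-ps2 had -0.81, -0.70, -0.51 and -0.26. Per base these 4 had 0.09, -0.08, 0.17 and 0.05, so the sign turned in all but Larp1. Ado and Mpg had 0.02 and 0.09 per base and Mynn 0.58. For Trim8, Hist1h4a, Eapp, Tob1 and Negr1 the per-base differences were -0.06, -0.50, -0.47, -0.04 and -0.52. The smallest adjusted p per base among the 16 was 0.0927, for Eapp. Sequencing and processing by day cannot be told apart from day in this contrast. Without scramble replicate 4 of day -2, 10 genes were called. With scramble libraries alone 5 were called, against 14.1% of all pairs, and with Kdm5c siRNA libraries alone 1, against 9.42%. At an overlap of 80%, 0 of 25 member pairs were called, against 9.9% of all pairs.

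**Figure D5:**
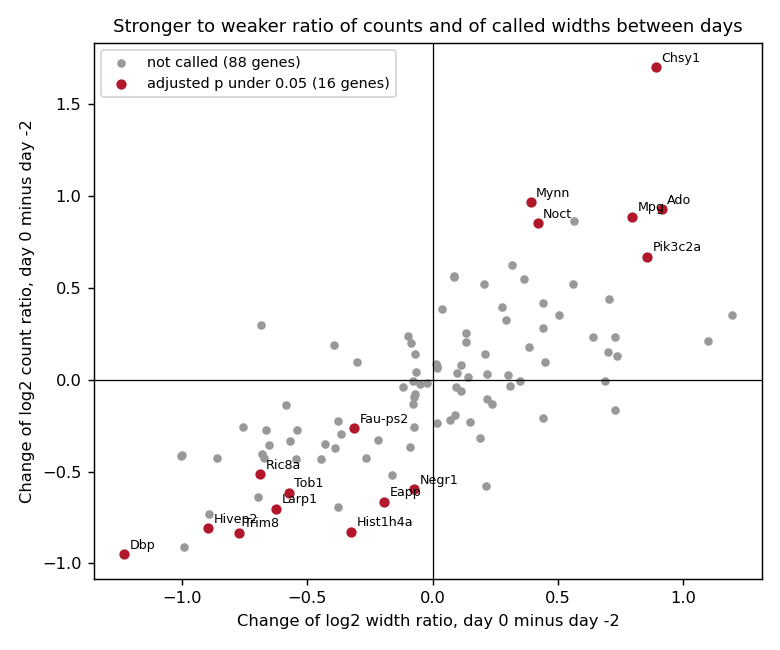
Change of the log2 count ratio of stronger to weaker peak, day 0 minus day -2, against the change of the log2 ratio of called widths, for 104 genes with both peaks matched. The 16 called genes, in red and named, all lie in the quadrants where both changes have the same sign.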

How the data were processed

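Whole-number raw counts per peak, which the authors deposited in 1 table a day, entered every test. A further table a day, deposited by the authors, holds normalised signal for peaks with a gene name. Within a library this signal equalled the raw count divided by 1 constant, so it served for gene names alone. The submitters' processing notes name MACS2 2.1.1 and HTSeq 0.9.1, besides Bowtie2 2.2.9, cutadapt 2.3 and DESeq2 1.24.0, and the GRCm38 build. Not given in the sources used here are the pooling of libraries for peak calling, the handling of duplicates and of the transposase offset, the rule that gave a peak its gene, and whether coordinates count from 0 or 1. Peak calling settings decide whether an open region is 1 peak or several.

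Each day was fitted alone in edgeR 4.0.16 (R 4.3.3, quasi-likelihood test), with TMM factors and filterByExpr, and Benjamini-Hochberg adjustment over all tested peaks. DESeq2 1.42.0 was the second tool. Normalised counts are raw counts divided by the relative effective library size. The log2 ratio of stronger to weaker peak, with 0.5 added to each count, was tested with limma 3.58.1 over all pairs of tested neighbouring peaks up to 100 kb apart together with the member pairs, with a trend on the pair's count. The contrast of days used raw counts, the arm as covariate, and peaks matched 1 to 1 by reciprocal overlap of 50% with bedtools 2.31.1. An adjusted p under 0.05 was called. Both procedures were tested on simulated data. Gene symbols matched a GRCm38.p6 gene table for 1130 of 1145 members. Sequences are from RefSeq on GRCm38.p6.

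Members, gene lists and rules were chosen with earlier results of these data known. Named genes are, per day, the 3 stronger and 3 weaker peaks and the 3 ratios with the smallest p in each direction, the 5 largest and 5 smallest ratios, the 5 genes with the most peaks, called genes, and members of the lists, with both peaks tested where a test is given, ties in peak number going to the higher summed count, and clone or model names left out. Genes with a start in each peak and the 8 plotted genes were picked after their values were seen. The number of libraries and counts of 10.7 in the median weaker peak limit the precision. Alternatives were RLE and total-count scaling, no filter, other pseudocounts, overlaps and distances, per-base counts, joined peaks, a block for replicate number, each arm alone and leaving out each replicate.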

Additional observations from a re-analysis of the deposited data

Results flagged for a closer look

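In a group of 4 libraries, a library was singled out when its gap to the nearest other took up more than 0.829 of the group's range. Chance gives this in about 1 of 20 groups, and it was found in 6 of the 95 groups examined, against 4.75 by chance. On day -2, scramble replicate 4 had 90.9 normalised counts at the stronger peak of Nckap5l, against 70.8 to 74.0 in the others of its group. On day -1, scramble replicate 2 had 75.3 at the stronger peak of Asap1, against 63.0 to 64.4. Kdm5c siRNA replicate 2 had 25.5 at the weaker peak of Igf1r on day -1, against 12.0 to 12.3. For the log2 ratio of stronger to weaker, scramble replicate 1 had -0.0725 at Ssb on day -2, against 0.88 to 0.94. Kdm5c siRNA replicate 1 had a log2 ratio of 0 at Ccdc173 on day -1, against 0.74 to 0.83. The median log2 ratio over 131 member pairs was 1.11 in Kdm5c siRNA replicate 4 on day -1, against 0.94 to 0.96 in the others of its group.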

How the results depend on the processing

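No member peak was called between arms on any day under RLE size factors, no filter on low counts, DESeq2, removal of mitochondrial peaks or without any 1 replicate (0 to 0). For joined peaks the arms were not fitted again. Calls of the main fit were only counted over genes still with separate peaks, so 0 was fixed in advance there. Total-count scaling on day -2 gave 82 called. It turned the direction of 4 of the 36 named peaks, to 0.0403 for Eapp and 0.0799 for Pik3c2a on day -2, 0.16 for Fam35a on day -1 and 0.19 for Fau-ps2 on day 0, and the other 488 of 492 values kept their direction. The log2 ratio gave 0 called member pairs between arms under every alternative run, including without any 1 replicate (0 to 0), and all 201 alternative values of its 18 named results kept their direction.

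The contrast of days moved most. The 16 called member pairs became 0 of 25 at 80% overlap (9.9% of all pairs), 3 with counts per base (12.1%), 5 with scramble alone (14.1%) and 1 with Kdm5c siRNA alone (9.42%), the last pair using fewer libraries. Without 1 replicate they were 10 to 15. Counts per base reversed 5 of the 16, Pik3c2a at -0.19, Dbp at 0.28, Ric8a at 0.17, Hivep2 at 0.0866 and Fau-ps2 at 0.0498. For the weaker or lost calls the cause was not tested, beyond the widths given above. The median log2 ratio of stronger to weaker peak, 1.43, was 0.47 when the stronger peak was chosen by counts per base, which picked the other peak in 355 genes, and 1.53 over the 10 genes left after joining peaks under 1 kb apart. Choosing the stronger peak in scramble libraries alone picked a different one in 58 genes.

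Libraries with equal replicate numbers were compared for signs of pairing. The correlation of their deviations from the group means was -0.04 to 0.16 over the days, highest for replicate 3 of day -2. Low counts can hide shared variation, so these values do not exclude pairing. With the replicate number as a block, 0 member peaks and 0 ratios were called between arms on each day, and the contrast of days gave 14 calls, of which 13 were among the 16. Weaker peaks limit the depth. On day -2, 662 of 1145 passed the filter. With no filter, all 2386 member peaks were tested and 0 called. Past the filter, a difference at a stronger peak had a median SE of 0.24 (log2), against 0.45 at a weaker peak.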

Other observations

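Among the genes with the other order of peaks on day 0 were also Atf6, a sensor of unfolded protein in the endoplasmic reticulum, Pigl, an enzyme of GPI anchor synthesis, and Npepps, an aminopeptidase. On day 0 the peak that had been the weaker one led by 0.36, 0.14 and 0.55 on the log2 scale, against log2 ratios of stronger to weaker of 1.01, 1.59 and 1.41 on day -2. Peaks were paired here by overlap of at least 1 base, and each day has its own peak boundaries. What part the called widths have in the changed order was not tested. Slc25a5, a mitochondrial ADP/ATP carrier on the X chromosome, led the other way by 0.01 on day 0, against 0.05 on day -2.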
